A study of Saccharomyces cerevisiae with 8 samples.

Results

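MCM2-7 in G1-phase was set against ORC in G2-phase at every yeast locus where either protein had an event in the deposited ChIP-Exo lists. The events of 4 lists, 2 of MCM2-7 and 2 of ORC, were pooled, and events up to 250 bp apart were chained into 1 locus. This gave 357 loci, where the 6 lists of the whole series, with ORC in G1-phase added, gave 355. Of the 357 loci, 324 had events in all 4 lists (90.8%, 95% Wilson interval 87.3 to 93.3), and these shared loci are the ones that could be ranked against each other. The 250 bp distance had little part in this number, since chaining at 100 bp left 327 shared loci and chaining at 500 bp left 323.

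ChIP-Exo adds an exonuclease step to immunoprecipitation of cross-linked chromatin: the enzyme digests each strand until it meets the protein, and the sequenced ends give the edges of the footprint. MCM2-7 was followed through its subunit Mcm4 in strain YC779 (Mcm4-Flag) and ORC through its subunit Orc2 in strain YC795 (Orc2-Flag), both W303 S. cerevisiae with the tag at the gene's own locus and both precipitated with an anti-Flag antibody. The Mcm4 cells were arrested in G1-phase with the mating pheromone alpha-factor, and the Orc2 cells in G2-phase with nocodazole, which blocks the spindle. Each condition had 2 biological replicates. Protein, strain and arrest therefore changed together and cannot be told apart, and the share of cells with a protein at a locus cannot be told apart from the amount bound per cell.

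ORC, the origin recognition complex, marks replication origins by binding a T-rich A-element that holds the ARS consensus sequence (ACS). In yeast it stays at many origins through most of the cell cycle. When cells enter G1-phase, ORC works with Cdc6 and Cdt1 to load pairs of ring-shaped MCM2-7 helicases around the DNA, a step called licensing, and these helicases later unwind the origin. ORC in G2-phase is thus the state before licensing and MCM2-7 in G1-phase its product. The comparison asks whether the order, the number and the extent of ORC events before licensing go with those of MCM2-7 after it.

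Sequences of 7 loci are printed here because the results return to them: ARS607 and ARS202 stood high in all 4 lists, ARS1631 and ARS818 stood higher for MCM2-7 than for ORC, ARS207 and ARS106 stood lower, and ARS422.5 had MCM2-7 without ORC in G2-phase. Each is 100 bases of the R64 genome (RefSeq, the sequence of strain S288C), 5′ to 3′ on the strand of its A-element, with the 11 bases at the A-element in capitals, which are bases 21 to 31.
ARS607: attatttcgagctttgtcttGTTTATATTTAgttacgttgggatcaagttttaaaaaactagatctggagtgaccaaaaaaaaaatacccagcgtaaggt
ARS202: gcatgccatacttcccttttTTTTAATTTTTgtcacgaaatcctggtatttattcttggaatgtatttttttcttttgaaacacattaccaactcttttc
ARS1631: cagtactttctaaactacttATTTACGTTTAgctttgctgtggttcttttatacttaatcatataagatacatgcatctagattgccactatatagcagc
ARS818: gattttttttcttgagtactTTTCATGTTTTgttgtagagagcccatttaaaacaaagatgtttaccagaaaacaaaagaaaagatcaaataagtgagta
ARS207: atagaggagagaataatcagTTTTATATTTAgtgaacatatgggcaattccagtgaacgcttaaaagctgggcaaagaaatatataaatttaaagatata
ARS106: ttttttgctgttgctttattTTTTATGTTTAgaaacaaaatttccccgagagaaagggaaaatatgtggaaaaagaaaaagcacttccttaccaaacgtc
ARS422.5: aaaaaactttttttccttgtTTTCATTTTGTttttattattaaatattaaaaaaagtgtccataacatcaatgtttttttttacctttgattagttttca
They lie at chrVI:199396-199495 (plus strand), chrII:63295-63394 (minus), chrXVI:933089-933188 (minus), chrVIII:392166-392265 (minus), chrII:170179-170278 (minus), chrI:70350-70449 (minus) and chrIV:748533-748632 (plus), in the order printed. The capitals match the 11 bp ACS at 10 bases in ARS607, 9 in ARS202, 11 in ARS1631, 10 in ARS818, 11 in ARS207, 11 in ARS106 and 8 in ARS422.5. A full match was thus held by both printed loci where MCM2-7 stood lower than ORC and by 1 of the 2 where it stood higher. These loci were picked, and the count shows no contrast between such groups. Within 201 bp around the first-listed ORC event, a full match was found at 38.6% of all loci higher for MCM2-7. It was found at 37.9% of those lower and at 34.3% of all shared loci. This window can miss the A-element where that event lies far from it, as at ARS818.

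The 4 lists differ in length and in how often the score reaches its cap of 1000. MCM2-7 had 1982 events in replicate 1 and 1723 in replicate 2, and ORC had 2178 in replicate 1 and 861 in replicate 2. The score was at the cap in the leading event, the first-listed event of a locus, at 96.9% and 92.9% of the shared loci for MCM2-7 and at 37.3% and 17.3% for ORC. Loci were therefore ranked by the place of the leading event in its list, written as a percentile among the shared loci with 100 the highest. Read counts are not part of the lists, so the depth of an event could not be given. The order of events within the cap was used as deposited, and the sources used here do not say what it measures. Place and score went together with a Spearman's rho of 0.889 and 0.925 for MCM2-7, where many scores tie at the cap, and of 0.999 in both ORC lists. All ranks below rest on this order.

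Nearly every locus with MCM2-7 in G1-phase also had ORC in G2-phase. MCM2-7 had events in both of its lists at 351 loci, of which 324 had ORC in both lists, 26 in 1 list and 1 in neither. No locus had ORC in both lists and MCM2-7 in neither, and a count of 0 among 357 allows a share of up to 0.840%, taken as 3 loci of the total. The study left origins without MCM2-7 occupancy out of its origin set. Whether the deposited lists were cut in the same way is not stated. This 0 is thus a count within the lists and not over the genome. ORC without any MCM2-7 occurred at 4 loci, each in a single ORC list, and among them ARS513.5 had 4 ORC events and ARS300 had 3. At ARS300, 100% of 40 bp stretches occur elsewhere in R64, so its reads cannot be placed with certainty.

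The 26 loci with ORC in a single list were low in MCM2-7 as well. At 25 of them the ORC events were in the longer list of replicate 1 and at 1 in replicate 2. Ranked among the 351 loci with MCM2-7 in both lists, their median MCM2-7 percentile was 13.4 in replicate 1 and 13.8 in replicate 2, beside 52.7 and 52.1 at the loci with ORC in both lists. The ORC percentile of the 25 loci in replicate 1 was also low, with a median of 13.5 and a highest value of 45.5. They were not uniformly low for MCM2-7, where 4 of the 26 stood above percentile 50 in replicate 1 and 6 in replicate 2, up to 71.4 and 91.3.

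ARS422.5 was the only locus with MCM2-7 in both lists and no ORC event in G2-phase. It spans chrIV:748317-748679 in R64, and the annotation places an origin there. The locus was assigned to SWI5, the gene of a transcription factor of the M/G1 transition, by a single position and not by its whole span. MCM2-7 had 5 events over 362 bp in replicate 1, the first at place 601, and 4 events over 349 bp in replicate 2, the first at place 480. Both leading events were at the cap of the score. They lay at bases 147 and 100 of the numbering of the printed sequence, downstream of its A-element, so the former falls past the end of the printed stretch.

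At the shared loci, the ORC rank in G2-phase went only in part with the MCM2-7 rank in G1-phase. Spearman's rho across the 324 loci was 0.382, 0.363, 0.393 and 0.346 in the 4 pairs of an MCM2-7 with an ORC list, beside 0.827 between the MCM2-7 replicates and 0.779 between the ORC replicates. The points of each pair are loci of 1 genome measured in the same libraries, and rho is given as a description. All 4 pairs between the proteins thus stood well below both pairs of replicates. The order within the cap was itself shared between the MCM2-7 replicates, with a rho of 0.788 among the 299 loci whose leading event was at the cap in both. It was less alike between the ORC replicates, at 0.510 among 51 such loci.

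The value of rho depended on that order. When loci were ranked by their highest score, with ties at the cap, the mean rho of the 4 pairs was 0.135 in place of 0.371, and the rho of the MCM2-7 replicates was 0.524. When they were ranked by their summed score, the mean was 0.123 and that of the MCM2-7 replicates 0.614. A weak positive relation was common to all 3 ways of ranking.

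With the loci split by ORC rank into 4 groups of 81, the relation showed at both ends of the ranking. In the lowest group, the median MCM2-7 percentile was 25.2 and 28.2 for MCM2-7 replicate 1 (with ORC replicates 1 and 2) and 26.7 and 32.6 for MCM2-7 replicate 2. In the highest group it was 67.4 and 67.4 for replicate 1 and 70.2 and 68.1 for replicate 2. The middle groups lay between these, at 47.4 to 56.9. The groups were not tight. Of the 81 loci highest for ORC, 37.0 to 43.2% were among the 81 highest for MCM2-7, and 12.3% were among the 81 lowest in each of the 4 pairs. By comparison, 59 of the 81 loci highest in 1 MCM2-7 list (72.8%) were among the 81 highest in the other, and the ORC replicates shared 59 of 81 as well. The difference between the medians of the highest and lowest groups, 40.1 percentiles on average, was 20.5 with lists of equal length, 20.8 with higher scores only, 10.8 with ranks from the summed score and 0 with ranks from the highest score.

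**Figure D1:**
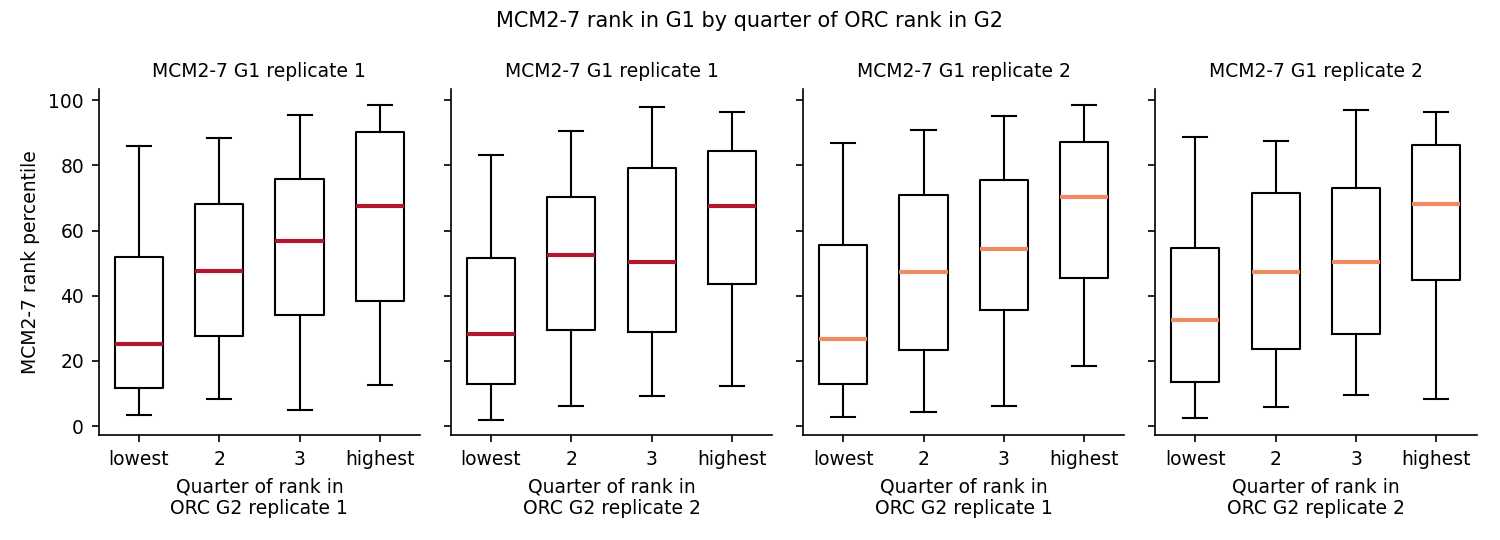
Rank percentile of MCM2-7 in G1-phase (vertical axis, 100 the highest) in 4 groups by ORC rank in G2-phase (horizontal axis, 81 loci per box), for each of the 4 pairs of lists. Lines mark medians, boxes the middle 50% of the loci and whiskers the 5th and 95th percentile. Medians run from 25.2 to 32.6 in the lowest group and from 67.4 to 70.2 in the highest, and the boxes of neighbouring groups overlap.

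A locus was called higher for MCM2-7 when both MCM2-7 percentiles were above both ORC percentiles. This held at 101 of the 324 loci (31.2%), the reverse held at 103 (31.8%), and at 120 the lists overlapped. Ranks within a list must balance, so the near-equal counts carry no information on direction.

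**Figure D2:**
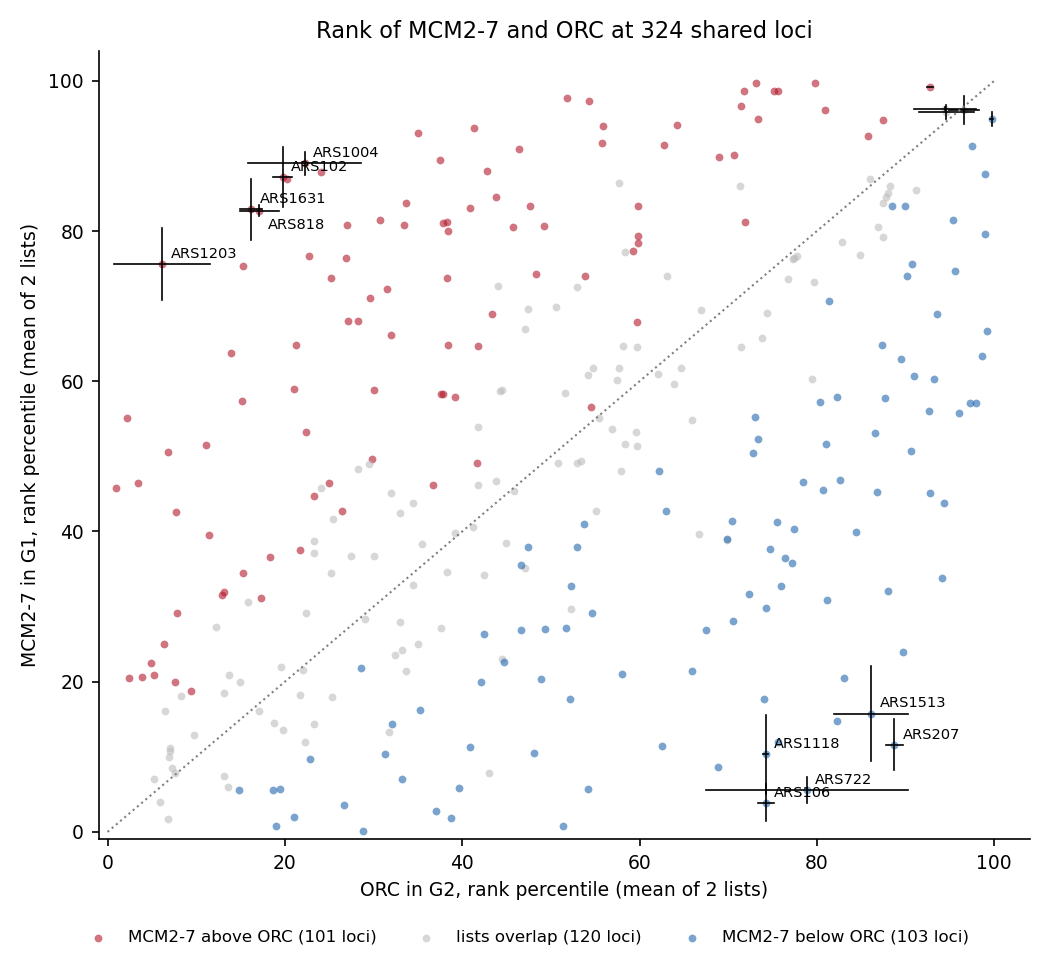
Rank percentile of ORC in G2-phase (horizontal) and of MCM2-7 in G1-phase (vertical) at the 324 shared loci, each point the mean of 2 lists. Red marks the 101 loci where both MCM2-7 lists stood above both ORC lists, blue the 103 where both stood below and grey the 120 others; crosses span the 2 lists of each protein for the 5 loci highest in all 4 lists, which sit at the upper right, and for the 10 labelled loci, which lie farthest from the dotted line of equal rank by the rule used to name them.

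The loci highest in all 4 lists were ARS922, ARS202, ARS607, ARS1511 and ARS815, with no percentile below 90.9. ARS607, an early and efficient origin on chromosome VI, had MCM2-7 percentiles of 99.2 and 99.2 and ORC percentiles of 93.1 and 92.4. MCM2-7 was compact there, with 2 events 23 bp apart in replicate 1 and a single event in replicate 2, where ORC had 9 events over 138 bp and 3 over 49 bp. The 2 proteins thus differed more in the number of events than in rank. In the printed sequence the MCM2-7 leads were at bases 51 and 77 and the ORC leads at bases 20 and 30, so ORC led at the A-element and MCM2-7 downstream of it.

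ARS202, between the divergent genes YBL086C and BOI1, stood at place 1 in the list of ORC replicate 1 and at place 2 in that of replicate 2. Its ORC percentiles were 99.8 and 99.5 and its MCM2-7 percentiles 94.0 and 95.8. ORC had 2 events 20 bp apart in replicate 1 and 1 event in replicate 2, with the leads at bases 29 and 25 of the printed sequence, within the ACS. MCM2-7 led at base 60 in replicate 1 and at base 107, just past the printed stretch, in replicate 2. MCM2-7 was downstream of ORC here in both replicates, as at ARS607. The other loci highest in all 4 lists did not all follow. The shift along the A-element strand was 2, -15, -24 and -41 bp in the 4 pairs of lists at ARS922. It was 34, -15, 29 and -20 bp at ARS1511 and -1, 21, 47 and 69 bp at ARS815.

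The 5 loci that stood highest for MCM2-7 relative to ORC were ARS818, ARS102, ARS1631, ARS1203 and ARS1004. At each of them the lower MCM2-7 percentile was at least 70.8 and the higher ORC percentile at most 28.5. ARS1631, 14719 bp from an end of chromosome XVI, had MCM2-7 percentiles of 78.9 and 86.9 and ORC percentiles of 17.4 and 15.0. Its MCM2-7 leads fell on the same base in both replicates, base 29 of the printed sequence and within a full ACS match. The ORC leads were at base 110 in replicate 1 and at base -95 in replicate 2, so they lay on opposite sides of the A-element.

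ARS818, between CRP1 and MRPL6, showed the same picture on chromosome VIII. The MCM2-7 percentiles were 81.9 and 83.5 and the ORC percentiles 15.0 and 19.3. MCM2-7 led at bases 58 and 74 of the printed sequence, while the ORC leads were at base -121 in replicate 1 and at base 202 in replicate 2, on opposite sides of them. The position of ORC was thus not shared between its replicates at this locus, where replicate 2 had 1 ORC event with a score of 137.

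At ARS1203 the leading ORC event lies within ATG10, the gene of an autophagy enzyme, and no origin of the RefSeq annotation overlaps the locus. Its MCM2-7 percentiles were 70.8 and 80.4 and its ORC percentiles 11.6 and 0.772. The MCM2-7 events covered 120 and 53 bp, the ORC events of replicate 1 covered 411 bp, and replicate 2 had a single ORC event. ARS1004, at 23797 bp from an end of chromosome X, had MCM2-7 percentiles of 90.6 and 87.5 and ORC percentiles of 15.9 and 28.5. Of the 10 loci farthest from equal rank it alone changed direction under an alternative that kept the locus. With loci ranked by summed score, its mean MCM2-7 percentile minus its mean ORC percentile was -20.6. It had 3 and 2 MCM2-7 events against 8 and 3 ORC events. Of the 10, only ARS102, ARS207 and ARS1513 remained shared loci with lists of equal length. With higher scores only, ARS207, ARS1513 and ARS1118 remained, so the direction of the others was not read there. ARS102 lies 538 bp from an end of chromosome I, and 17.4% of its 40 bp stretches occur elsewhere in R64; the part of reads from such copies was not tested.

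The 5 loci that stood lowest for MCM2-7 relative to ORC were ARS207, ARS106, ARS722, ARS1513 and ARS1118. No MCM2-7 percentile of these loci was above 22.1 and no ORC percentile below 67.4. ARS207, between RPL19B and LSM2, had ORC percentiles of 87.8 and 89.7 and MCM2-7 percentiles of 15.0 and 8.18. Its leading ORC events lay at bases 56 and 43 of the printed sequence, and its leading MCM2-7 events at bases 210 and 170, well beyond its end. The MCM2-7 events were spread over 309 and 285 bp, beside 51 and 142 bp for ORC.

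ARS106, between the divergent genes CYC3 and CDC19 (the gene of pyruvate kinase), had ORC percentiles of 73.3 and 75.2 and MCM2-7 percentiles of 1.39 and 6.33. Here the leads of the proteins coincided, at bases 49 and 57 of the printed sequence for MCM2-7 and at bases 53 and 58 for ORC. A large gap in rank thus occurred with and without a shift in position. At ARS106 the MCM2-7 events spanned 329 and 355 bp and the ORC events 94 and 82 bp, and the MCM2-7 scores were below the cap, at 761 and 882. At ARS722, 17.6% of 40 bp stretches occur elsewhere in R64.

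**Figure D3:**
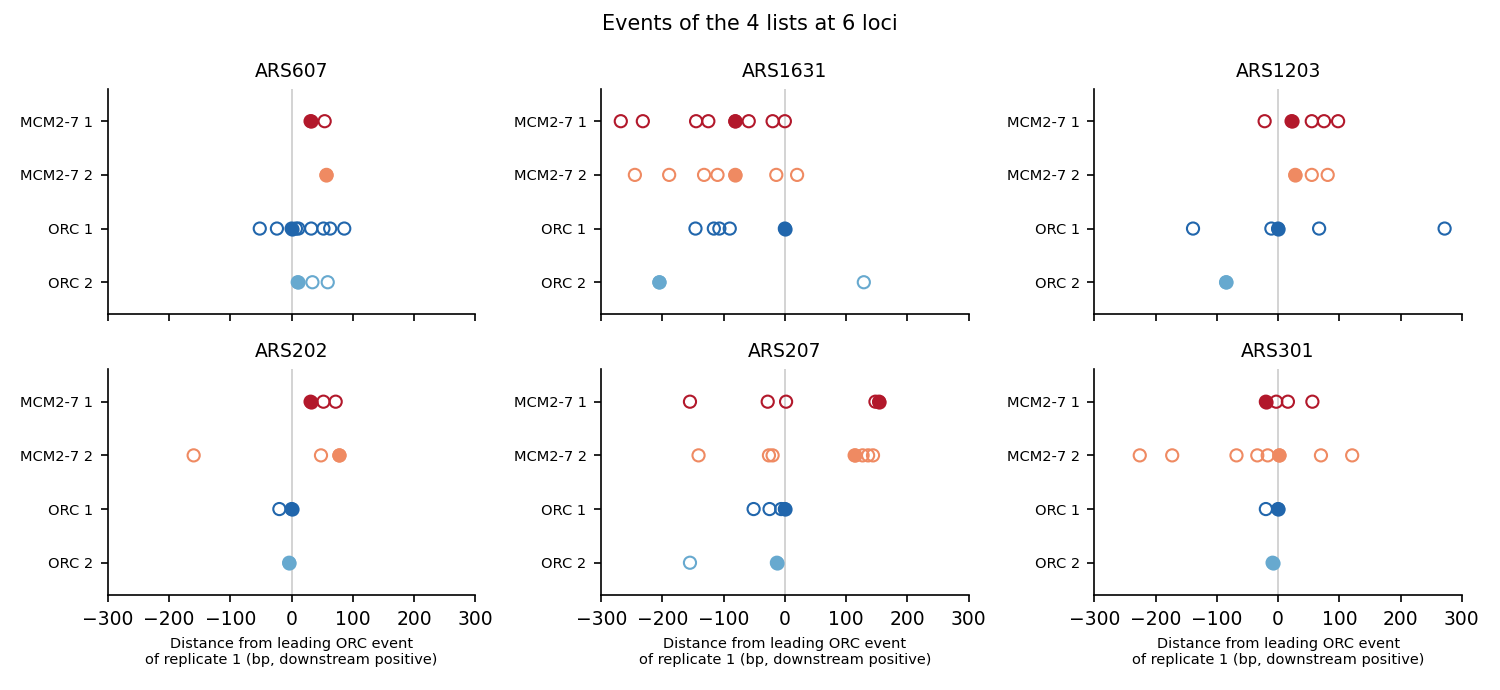
Positions of all events of the 4 lists at 6 loci, in bp from the leading ORC event of replicate 1 and positive downstream along the strand of the A-element (horizontal axis); filled circles are leading events and open circles the others, with rows for replicates 1 and 2 of each protein. MCM2-7 is narrow at ARS607 (23 bp and a single event) and wide at ARS207 (309 and 285 bp), where ORC is narrower; at ARS1631 the MCM2-7 leads coincide and the ORC leads of the replicates lie apart.

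Well-studied origins did not all stand in 1 place. Of 9 early origins on a fixed list, 3 were higher for MCM2-7, 4 lower and 2 overlapped, beside 31.2% and 31.8% over all shared loci. ARS416 (ARS1), next to TRP1, was high for both proteins, with MCM2-7 percentiles of 93.7 and 81.6 and ORC percentiles of 99.5 and 98.3. ARS606 was higher for MCM2-7, at 98.3 and 98.9 against 77.9 and 65.6, and ARS1021 lower, at 43.7 and 46.5 against 88.4 and 97.1. The median percentiles of the 9 were 84.1 and 76.4 for MCM2-7 and 77.9 and 77.6 for ORC.

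The origins listed at the silent mating-type loci were lower for MCM2-7 than for ORC in every case. On the fixed list, ARS301, ARS302 and ARS320 lie at HML, and ARS317 and ARS318 at HMR. At silencers, ORC helps to recruit the Sir proteins that repress these loci. All 5 of 5 were called lower, beside 31.8% over all shared loci. Neighbours among them are not independent, since ARS302 ends at position 14782 of chromosome III and ARS320 starts at 15110. ARS317 (HMR-E) had ORC percentiles of 92.4 and 96.1 and MCM2-7 percentiles of 42.7 and 44.9. ARS302 had 97.4 and 98.6 for ORC and 51.1 and 63.1 for MCM2-7.

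Within the 5, ORC itself was not always high. ARS318 had ORC percentiles of 27.0 and 26.4 and MCM2-7 percentiles of 2.31 and 4.78. ARS320 had ORC percentiles of 37.2 and 27.0 and MCM2-7 percentiles of 8.18 and 20.5. The ORC rank at these loci was below the middle of the list, and what all 5 shared was the order of the proteins. At ARS301, where 28.9% of 40 bp stretches occur elsewhere in R64, the ORC percentiles were 97.7 and 96.8 and the MCM2-7 percentiles 73.0 and 41.2.

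Number of events was less alike between the proteins than rank. A shared locus had 5.72 ± 1.93 and 4.98 ± 1.88 MCM2-7 events (mean ± SD over 324 loci) and 6.38 ± 2.58 and 2.65 ± 1.46 ORC events. ORC replicate 1 thus had the most events per locus and ORC replicate 2 the fewest, with both MCM2-7 lists between them. The group means differed by 0.836 events (exact permutation test over the 4 lists, two-sided, p = 1, where 2 against 2 allows no p below 0.333). Without ORC replicate 2 the difference was -0.930, and when every list was limited to its first-listed 861 events it was -0.195.

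Across loci, rho of the number of events was 0.129, 0.113, 0.111 and 0.0267 in the 4 pairs between proteins, 0.499 between the MCM2-7 replicates and 0.355 between the ORC replicates. Loci with many MCM2-7 events were thus partly the same in both MCM2-7 lists, and hardly those with many ORC events. Both MCM2-7 lists had more events than both ORC lists at 75 loci (23.1%) and fewer at 12 (3.7%). With every list at its first-listed 861 events, the counts were 39 and 38 of 241 shared loci (16.2 and 15.8%), so the unequal counts were not seen in lists of equal length. In the short list of ORC replicate 2, 85 of the 324 loci had a single event, beside 6 in ORC replicate 1, 1 in MCM2-7 replicate 1 and 11 in MCM2-7 replicate 2.

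The loci with most MCM2-7 events were ARS208, ARS601/ARS602, ARS1220, ARS434 and ARS1226, and none had an MCM2-7 percentile above 65.9. ARS208, which lies 362 bp from the centromere of chromosome II, had 10 and 10 MCM2-7 events over 321 and 392 bp, and 9 and 5 ORC events. ARS601/ARS602 holds the A-elements of both origins, with 11 and 9 MCM2-7 events over 614 and 441 bp, and 6 and 1 ORC events. ARS1220 had 12 and 8 MCM2-7 events and 13 and 7 ORC events. At 4 of the 5 the MCM2-7 percentiles were lower than those of ORC in all 4 pairs, and at ARS1220 they overlapped, where 31.8% of all shared loci were lower. These loci were picked by MCM2-7 number, which itself went with low MCM2-7 rank (rho -0.279 and -0.325).

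The clearest excess of MCM2-7 over ORC events was at ARS1227, ARS407, ARS1215, ARS1407 and ARS1510.5. ARS1227 had 8 and 8 MCM2-7 events against 3 and 1 ORC events, with ORC percentiles of 1.70 and 0.154 and MCM2-7 percentiles of 49.2 and 42.4. ARS1407 had 9 and 9 MCM2-7 events against 5 and 5, with ORC percentiles of 94.0 and 68.4 and MCM2-7 percentiles of 35.6 and 26.1. An excess in number was therefore found where ORC ranked low and where it ranked high.

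Spread, the distance from the lowest to the highest event position of a locus, was compared at the 232 loci with at least 2 events in every list. Its mean was 238 ± 105 and 214 ± 100.5 bp for MCM2-7 and 239 ± 111 and 150 ± 94.7 bp for ORC (SD over loci). Only ORC replicate 2 stood apart, and the group means differed by 30.8 bp (exact permutation test, two-sided, p = 1, smallest possible 0.333). Without ORC replicate 2 the difference was -14.1 bp. The median gap between neighbouring events was 40 and 34 bp for MCM2-7 and 28 and 48 bp for ORC, a difference of -1 bp (exact permutation test, two-sided, p = 1).

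**Figure D4:**
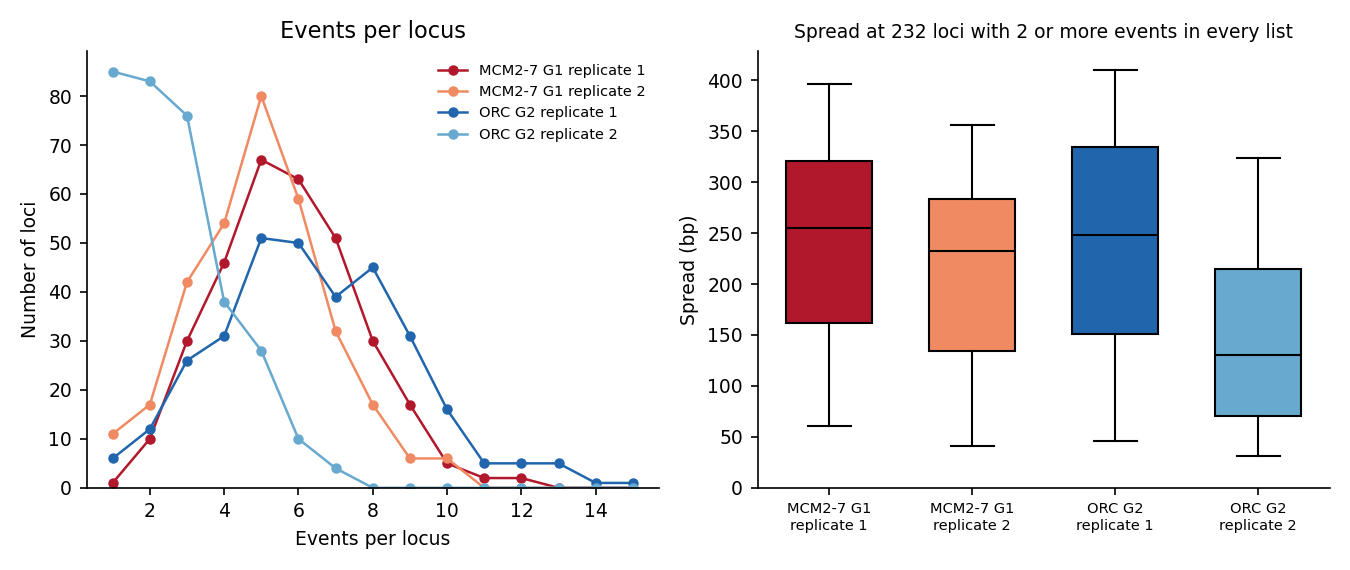
Left, the number of loci (vertical) by events per locus (horizontal) in each of the 4 lists, over 324 loci. Right, spread in bp at the 232 loci with at least 2 events in every list, with medians, boxes over the middle 50% of loci and whiskers from the 5th to the 95th percentile; ORC replicate 2 (light blue) has fewer events (2.65 per locus) and a smaller spread (mean 150 bp) than the other 3 lists.

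Spread was also read at an equal number of events. Loci with 5 events had a median spread of 223.5 bp in MCM2-7 replicate 1, 225 bp in MCM2-7 replicate 2, 269 bp in ORC replicate 1 and 196 bp in ORC replicate 2. Loci with 4 events had 153, 164.5, 177.5 and 176.5 bp in the same order, and loci with 3 events had 63.5, 100, 139 and 118.5 bp. At 3 and 4 events the medians of both MCM2-7 lists were below those of both ORC lists, and at 5 events the ORC replicates lay on both sides of MCM2-7. Loci with 6 events had 252 and 263 bp for MCM2-7 and 255 bp in ORC replicate 1. With 7 events MCM2-7 was wider, at 309.5 and 278 bp against 242 bp. With 8 events it was 314 bp in MCM2-7 replicate 1 against 271 bp in ORC replicate 1. Lists with few such loci are left out. The order of the proteins thus changed with the number of events.

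Loci of high MCM2-7 rank were compact. Among the 81 loci highest in MCM2-7 rank the median spread was 95 bp in both MCM2-7 lists, and among the 81 lowest 296 bp in replicate 1 and 267 bp in replicate 2. The highest loci also had fewer events, with means of 4.52 against 5.96 in replicate 1 and 3.78 against 5.40 in replicate 2. Spread grows with the number of events, and the part of number in this relation was not tested. The smaller spread at high rank held across replicates. The 81 loci highest in replicate 1 had a median spread of 132 bp in replicate 2, beside 262 bp for the 81 lowest. The rank correlation of MCM2-7 rank with MCM2-7 spread was -0.496 and -0.453 within a list and -0.413 and -0.398 across replicates. ORC replicate 1 had the same sign, at -0.406, and ORC replicate 2 did not, at 0.0379.

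The ORC rank in G2-phase was related to the MCM2-7 spread in the same direction, and more weakly. The rank correlation was -0.226, -0.157, -0.166 and -0.107 in the 4 pairs, and the median MCM2-7 spread was 240 to 264 bp at the 81 loci lowest for ORC and 168 to 212 bp at the 81 highest. The number of MCM2-7 events was not ordered by ORC rank in this way, with rho between -0.0608 and -0.0201. Both relations depended on which events were kept. The mean rho with MCM2-7 spread, -0.164, was -0.0209 with lists of equal length and -0.0215 with higher scores only, and that with MCM2-7 number, -0.0400, was 0.0693 with lists of equal length and -0.162 with close events joined. Spread itself had a rho of 0.0909 to 0.202 between the proteins, beside 0.539 between the MCM2-7 replicates and 0.170 between the ORC replicates. At the 232 loci with at least 2 events in every list it was 0.126 to 0.204 between the proteins, 0.527 between the MCM2-7 replicates and 0.279 between the ORC replicates.

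The leading events of the proteins lay close together. Their median distance was 42, 43, 46 and 41.5 bp in the 4 pairs, beside 19.5 bp between the MCM2-7 replicates and 37.5 bp between the ORC replicates. They were within 25 bp of each other at 31.8 to 35.8% of loci, beside 60.5% (55.1 to 65.7) for the MCM2-7 replicates and 41.4% (36.1 to 46.8) for the ORC replicates. The distance between proteins was thus greater than the error of an MCM2-7 position, and only a few bp more than that of an ORC position.

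**Figure D5:**
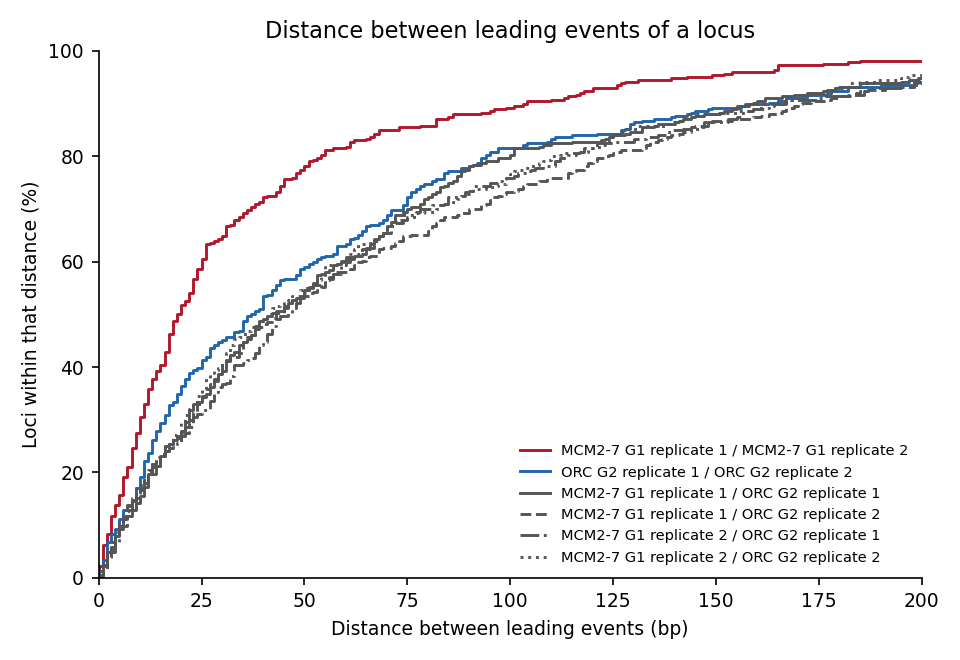
Share of the 324 loci (vertical, %) whose leading events lie within a given distance (horizontal, bp) for the MCM2-7 replicates (red), the ORC replicates (blue) and the 4 pairs between the proteins (grey). The red curve is the steepest, with a median of 19.5 bp, and the grey curves, with medians of 41.5 to 46 bp, run close to the blue curve at 37.5 bp.

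Along the strand of the A-element, known for 304 of the shared loci, MCM2-7 led slightly downstream of ORC. The median shift was 8, 5, 7 and 4 bp in the 4 pairs, beside 1 bp between the MCM2-7 replicates and 0 bp between the ORC replicates. The shift was small beside the variation over loci, with the middle 50% of loci between -31 and 51 bp for replicate 1 of both proteins. MCM2-7 was more than 25 bp downstream at 34.2 to 38.2% of loci and more than 25 bp upstream at 27.0 to 29.3%. Shifts of both signs were thus common, as at ARS607 and ARS202 (downstream), ARS106 (none) and ARS1631 (both signs). The A-element positions were corrected by the authors with their own footprints, so the strand used for the shift, the names of loci and the positions given relative to the A-element rest in part on the footprints compared here.

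ORC position was better shared where ORC ranked high. The median distance between MCM2-7 and ORC leads was 68 to 84 bp at the 81 loci lowest in ORC rank and 25 to 33 bp at the 81 highest. The distance between the ORC replicates went the same way, from 71 and 78 bp to 16 and 19 bp, so a less certain ORC position at low rank moves with this result, and its part in it was not tested. The nearest ORC event, leading or not, lay at a median of 9 bp from the MCM2-7 lead in ORC replicate 1 for both MCM2-7 lists. It lay at 20 and 17.5 bp in the shorter list of ORC replicate 2. ORC replicate 1 had 6.38 events per shared locus with a median gap of 28 bp. An event close to any position within a locus is thus likely there. No baseline was taken, so these distances do not place ORC at the MCM2-7 lead.

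In the lists as deposited, the leading event of 1 protein often lay within the range of the other. The leading ORC event lay between the outermost MCM2-7 events at 84.0 and 81.2% of loci for MCM2-7 replicate 1 (with ORC replicates 1 and 2) and at 75.6 and 72.8% for MCM2-7 replicate 2. The leading MCM2-7 event lay between the outermost ORC events at 77.2 and 79.0% in ORC replicate 1, but at 45.7 and 46.0% in ORC replicate 2, in which 26.2% of the loci had a single event. Both shares moved with the number of events listed. The mean share of enclosed ORC leads, 78.4%, was 50.3% with lists of equal length and 58.4% with higher scores only.

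The shared loci had the features of yeast origins, and an annotated origin overlapped 265 of the 324. The features below therefore describe loci that are mostly known origins and are no independent evidence on them. The leading ORC event lay between genes at 297 of 324 loci (91.7%, 88.1 to 94.2). A full match to the 11 bp ACS, on either strand, was found within 201 bp around it at 34.3% of loci and a match of at least 10 bases at 82.1%, beside 1.23 and 18.8% of all consecutive 201 bp windows of R64. AT content over 101 bp had a median of 71.3%, beside 61.4% for the genome. A match is a description of the sequence and not a binding site.

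As read around the ORC lead, these features hardly separated loci of high and low MCM2-7 rank relative to ORC. A full ACS match was found at 38.6% (29.7 to 48.4) of the loci higher for MCM2-7 and at 37.9% (29.1 to 47.5) of those lower. The first group ranked low for ORC (median percentiles 33.2 and 32.9), where the window around the ORC lead can miss the A-element. At ARS102 the window gave 9 matching bases, while the A-element matches at 11. How this bears on the shares was not tested. The position on the chromosome differed more. Loci within 20000 bp of a chromosome end made up 19 of the 101 higher for MCM2-7 (18.8%, 12.4 to 27.5) and 8 of the 103 lower (7.77%, 3.99 to 14.6), beside 39 of the 324 shared loci. Loci within 20000 bp of a centromere made up 7 (6.93%, 3.40 to 13.6) and 17 (16.5%, 10.6 to 24.9), beside 32 of the 324. The intervals of both features overlap between the groups and cover counting error only, and no test was made because neighbouring loci are not independent.

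The genes around the loci differed in the same descriptive sense. Divergent genes flanked 9 of the 101 loci higher for MCM2-7 and 25 of the 103 lower, beside 55 of all 324, and convergent genes 31 and 25, beside 92. Stretches of 40 bp that occur elsewhere in R64, where reads cannot be placed with certainty, were present at 15 of the 101 loci (14.9%) and 10 of the 103 (9.71%), beside 37 of all 324. How repeated sequence near chromosome ends bears on the first group was not tested.

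Loci high in all lists and loci low in all lists were few. The highest 25% of ranks in every list was shared by 20 loci and the lowest 25% by 18. None of the 18 had a full ACS match (0%, interval 0 to 17.6) beside 4 of the 20 (20%, 8.07 to 41.6) and 34.3% of all shared loci, and the intervals of the first 2 overlap. The search window followed the ORC lead of replicate 1. At the 81 loci lowest in ORC rank, the leads of the ORC replicates lay a median of 71 and 78 bp apart. A match at the A-element can thus be missed at low ORC rank, and the part of this was not tested. Of the 18, 14 lay between genes beside 19 of the 20 and 297 of all 324. Matches of at least 10 bases were found at 10 of the 18 and 16 of the 20. The median MCM2-7 spread was 278 and 249 bp at the loci low in all lists and 65.5 and 59.5 bp at those high in all, and an annotated origin overlapped 9 of the 18, 19 of the 20 and 265 of all 324.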

How the data were processed

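ChIP-Exo event lists of Mcm4-Flag (G1-phase) and Orc2-Flag (G2-phase), each with 2 biological replicates, were compared. Lists of Orc2 in G1-phase were used only where named, and S-phase samples were not analysed here. Reads were aligned by the authors to R64 with Bowtie2 (version 2.3.5). Their event caller, ChExMix (version 0.45), was run per replicate at 1.5-fold enrichment and a q-value of 0.01, with tRNA genes and the rDNA left out. The deposited score is a whole number with a cap of 1000 that the sources used here do not define, and it is not normalized between lists. Other deposited values used are the event positions. No read counts are held, so depth is unknown.

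Events up to 250 bp apart were chained into loci. Loci were named by A-elements within 250 bp and oriented by those within 150 bp, from the study's list of 332, of which 329 have a strand. Rank is the percentile of the place of the first-listed event. Named are the 5 loci highest in all lists, the 5 with the largest gap between proteins in each direction, the 5 with most MCM2-7 events, the 5 with the largest excess over ORC and fixed lists of early, late and silencer origins. ARS422.5 and the loci with ORC but no MCM2-7 were chosen after their values were seen. Members and lists were chosen with earlier results of these data known. Group means were compared by exact permutation tests over lists. Shares have 95% Wilson intervals, which cover counting error only. Of the summary measures, 8 were tested on 320 simulated loci, whose scores did not tie at a cap, and 8 of 8 were recovered. Measures of spread, the percentile difference between ORC groups and the enclosed shares were not among them. The alternatives were leaving out each list, same-numbered lists only, other chaining distances, lists of equal length, higher scores only, joined events, other ranks, positions and strands. Software was SciPy 1.17.1, NumPy 2.4.6, Matplotlib 3.10.9 and pandas 2.3.3 under Python 3.11.15.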

Additional observations from a re-analysis of the deposited data

Results flagged for a closer look

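ORC in G1-phase, which is outside the comparison, was present at many loci that lacked it in a G2-phase list. Of the 27 loci with MCM2-7 in both lists and ORC in fewer than 2 G2-phase lists, 22 had ORC events in both G1-phase lists (81.5%, 95% Wilson interval 63.3 to 91.8) and 25 in at least 1. Of the 324 loci with events in all 4 lists, 319 had ORC in both G1-phase lists (98.5%, 96.4 to 99.3). ARS422.5, which had no ORC event in G2-phase, had 1 and 3 ORC events in G1-phase replicates 1 and 2. The G2-phase replicate 2 list, in which 26 of these loci had no event, is the shortest of the series.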

How the results depend on the processing

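The number of shared loci stayed within 1.5 times of 324 under all alternatives but that of higher scores. Across the 151 values of summary measures under the alternatives, 102 moved by no more than the SD over pairs of lists, or kept their sign where a permutation test was run, 36 moved further and 13 changed sign. The causes of these moves were not tested. Leaving out 1 list at a time gave 324 to 349 shared loci, a difference in events per locus (MCM2-7 minus ORC) of -0.930 to 2.70, in spread of -14.1 to 75.7 bp and in gap of -11 to 9 bp, with the negative values of the first 2 and the 9 bp from leaving out ORC replicate 2. The same settings gave a mean rho of 0.360 to 0.424 for rank, 0.0689 to 0.169 for number, 0.109 to 0.209 for spread, -0.0405 to 0.00121 for ORC rank with MCM2-7 number and -0.192 to -0.136 for ORC rank with MCM2-7 spread. The difference in median MCM2-7 percentile between the 81 loci highest and lowest for ORC (40.1) was 37.4 to 43.8, the distance between leads 42.5 to 46.5 bp, the shift 4.5 to 6.5 bp, the share of enclosed ORC leads 74.2 to 82.6% and that of enclosed MCM2-7 leads 45.7 to 76.6%.

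Chaining at 100 bp gave a rho of 0.393 for rank, 0.184 for number, 0.336 for spread, -0.00715 for ORC rank with MCM2-7 number and -0.108 with MCM2-7 spread, and 41 bp between leads. With lists of equal length (861 events), events per locus differed by -0.195, spread by -13.2 bp and gap by 2.75 bp, rho was 0.202 for rank, 0.0115 for number, 0.0828 for spread, 0.0693 for ORC rank with MCM2-7 number and -0.0209 with MCM2-7 spread, the percentile difference was 20.5, the distance 36 bp and enclosed ORC leads 50.3%. With only events scoring no lower than the list's median, 212 loci were shared, the gap differed by 4 bp, rho was 0.217 for rank, -0.00982 for number, 0.0258 for spread, 0.0135 for ORC rank with MCM2-7 number and -0.0215 with MCM2-7 spread, the percentile difference was 20.8, the distance 35.6 bp, and enclosed leads 58.4% for ORC and 38.3% for MCM2-7. The relation of ranks was thus weaker when lists were shortened.

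Joining events closer than 30 bp gave a rho of -0.162 for ORC rank with MCM2-7 number and 70.8% enclosed ORC leads. Ranks from the highest score gave a rho of 0.135 and a percentile difference of 0, since most MCM2-7 leads tie at the cap. Ranks from the summed score gave 0.123 and 10.8, with a rho of 0.0236 for ORC rank with MCM2-7 number and -0.0926 with MCM2-7 spread, and -20.6 for ARS1004, the only change of sign among 96 values of the 10 loci that differed most. Most of these 10 loci gave no value with lists of equal length or with higher scores only, since they were no longer shared. The mean position of all events gave 41.0 bp between proteins, and the strand of the best ACS match a shift of 9.38 bp.

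Replicate numbers are shared between the proteins by label only. Deviations of same-numbered lists had a Pearson's r of -0.0727 for rank, -0.0520 for number and 0.0801 for spread across 324 loci. With same-numbered lists only (a replicate block), the mean rho was 0.364 for rank, 0.0777 for number and 0.171 for spread, the percentile difference was 38.9 and the distance between leads 41.8 bp, and no measure moved by more than its SD over pairs.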

Other observations

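The lists of ORC in G1-phase held events only near the loci described above, and ORC at sites away from them was not analysed here. None of the 1170 events of replicate 1 and none of the 1379 events of replicate 2 lay more than 250 bp from every one of the 357 loci.

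Late origins on the fixed list were few. ARS609 was lower for MCM2-7, with percentiles of 47.4 and 43.1 against 90.0 and 83.5 for ORC. ARS319, 590 bp from an end of chromosome III, was higher for MCM2-7, at 97.4 and 90.6 against 55.7 and 56.0, and 42.2% of its 40 bp stretches occur elsewhere in R64. ARS603 overlapped, at 31.3 and 29.8 for MCM2-7 and 0.772 and 31.0 for ORC.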
